A study of Mus musculus with 6 samples.

Results

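Transcripts of 10 genes that write, copy, oxidise or protect DNA methylation were followed in early mouse embryos. They are Dnmt1, Dnmt3a, Dnmt3b, Dnmt3l, Uhrf1, Tet1, Tet3, Zfp57, Trim28 and Dppa3, taken by name from a table of 23258 named genes, with the row of most reads kept for each. All 10 had at least 20 reads over the columns of the table, and 9 had at least 10 reads with a T-to-C mismatch. The groups were zygotes with the genotype Pabpn1l-null, wild-type (WT) 2-cell embryos and WT zygotes, with 2 samples in each, of 50 embryos per the protocol. The null genotype is of Pabpn1l, a poly(A)-binding protein gene of oocytes and early embryos whose product takes part in the removal of maternal mRNA. The labels give no strain, no deleted part of the gene and no genotype of the father.

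Per the protocol in the labels, embryos were kept for 2 h with 200 μM 4-thiouridine, a uridine analogue that cells build into new RNA, at 26 h after the hormone that triggers ovulation. That protocol speaks of zygotes alone and gives no separate hour or number for 2-cell embryos. Alkylation with iodoacetamide makes the analogue read as C in place of T, and reads with such a mismatch are called T-to-C reads here. They hold reads of new RNA and, with no unlabelled embryos for comparison, an unknown part from sequencing errors and sequence variants. The table gives total reads and T-to-C reads in 1 pair of columns per group, so no difference below has a replicate check, and every ratio compares libraries rather than conditions. What part of each transcript was counted, and its length, are not given, so levels are not compared between genes.

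The Pabpn1l-null zygote column held 1270347 reads on named genes, the 2-cell column 4020438 and the WT zygote column 3001472. T-to-C reads made up 3.86% of reads in null zygotes, 4.54% in 2-cell embryos and 3.03% in WT zygotes. In null zygotes the reads were clumped. Of 1295 genes that should have had 3 to 5 reads there at their WT zygote level, 58.3% had 0, against 2.46% for independent reads. This corresponds to 7.20 reads per molecule if levels are equal in both columns and the WT zygote counts are exact. Real differences and clumps in the WT zygote column would also add zeros, and their part was not tested. In every column 7 reads were therefore counted as 1 molecule, and all intervals are 95% intervals on such molecules. They hold counting error alone, because PCR copies carry no molecular identifiers here. RPM values are reads per 1000000 scaled reads. A gene is called higher or lower where the scaled ratio is at least 2-fold and its interval leaves out 1. Pabpn1l itself had 4 reads in null zygotes, 14 in 2-cell embryos and 47 in WT zygotes, none of them T-to-C reads. Its null-to-WT ratio of 0.268 had an interval reaching 2.25, so the genotype could not be checked at this depth. The 12 markers of oocytes and zygotes summed to 23883 reads in null zygotes, 16484 in 2-cell embryos and 43617 in WT zygotes. Against WT zygotes, 5 of them were higher and 0 lower in null zygotes, and 0 were higher and 6 lower in 2-cell embryos. Of all genes tested, 4.45% were called in either direction in null zygotes. In 2-cell embryos 18.5% of them were higher and 17.9% lower. The 16 listed 2-cell genes found in the table summed to 233 reads in null zygotes, 12102 in 2-cell embryos and 1125 in WT zygotes. For cumulus and granulosa cells, 18 markers summed to 27, 153 and 156 reads in null zygotes, 2-cell embryos and WT zygotes, and 16, 9 and 11 of them were at 0 in these columns. For sperm, 13 markers summed to 274 reads in null zygotes, 1786 in 2-cell embryos and 446 in WT zygotes. Of these, 274, 1747 and 436 were reads of Odf2 in the same columns, while the sperm protamine gene Prm1 had 0 in each. The 7 blood cell markers found summed to 1 read in null zygotes, 64 in 2-cell embryos and 42 in WT zygotes.

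Methylation of DNA in mammals lies mostly on the C of CpG dinucleotides. DNMT3A and DNMT3B place it anew, with DNMT3L as a partner that lacks catalytic activity, and DNMT1 copies it to the new strand after replication, guided by UHRF1. TET proteins oxidise it, and after fertilisation most of it is lost from both parental genomes. Imprinted regions keep theirs, because the zinc-finger protein ZFP57 binds them in the methylated state and recruits TRIM28 with its heterochromatin partners. DPPA3, also called Stella or PGC7, shields the maternal genome from TET3 in the zygote. Products of many of these genes are stored in the egg, so mRNA levels do not give protein levels.

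The members differ in the CpG content of the 250 bases before their start sites, from RefSeq on GRCm38.p6, the assembly behind mm10. Start sites were listed for 9 members, 18 in all, and which of them the embryos used was not measured. The sequences shown belong to a pair of imprint keepers and a pair of TET genes, each pair with members that moved in opposite directions between the zygote and the 2-cell stage (Zfp57 and Tet3 lower, Trim28 and Tet1 higher). Each is given 5′ to 3′ on the strand of its gene, at chr17:37000913-37001162 (plus strand) for Zfp57, chr7:13023902-13024151 (plus) for Trim28, chr6:83441679-83441928 (minus) for Tet3 and chr10:62887325-62887574 (minus) for Tet1. The Tet3 window lies wholly, and the Tet1 window partly, within the RefSeq span of its gene, so each precedes a start inside that span. Capitals mark CpG dinucleotides.
Zfp57: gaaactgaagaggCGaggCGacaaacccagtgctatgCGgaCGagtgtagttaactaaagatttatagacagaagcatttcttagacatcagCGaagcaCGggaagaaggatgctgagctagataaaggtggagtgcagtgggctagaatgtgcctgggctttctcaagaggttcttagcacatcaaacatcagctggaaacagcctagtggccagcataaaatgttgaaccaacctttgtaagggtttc
Trim28: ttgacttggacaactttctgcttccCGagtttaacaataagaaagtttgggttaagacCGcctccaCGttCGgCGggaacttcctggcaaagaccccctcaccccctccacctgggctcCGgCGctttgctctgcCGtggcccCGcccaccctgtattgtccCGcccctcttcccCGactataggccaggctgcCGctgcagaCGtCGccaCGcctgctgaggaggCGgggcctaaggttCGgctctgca
Tet3: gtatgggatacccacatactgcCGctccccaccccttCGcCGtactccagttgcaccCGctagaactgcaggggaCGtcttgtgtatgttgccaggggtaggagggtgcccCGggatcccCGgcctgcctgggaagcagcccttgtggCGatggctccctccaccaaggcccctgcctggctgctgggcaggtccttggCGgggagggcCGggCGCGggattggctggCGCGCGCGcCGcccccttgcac
Tet1: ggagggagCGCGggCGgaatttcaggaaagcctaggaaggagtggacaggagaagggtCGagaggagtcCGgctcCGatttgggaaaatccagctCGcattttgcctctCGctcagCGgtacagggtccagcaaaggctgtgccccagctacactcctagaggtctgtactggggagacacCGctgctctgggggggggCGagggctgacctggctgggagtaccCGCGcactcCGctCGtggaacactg
These windows hold 6 CpGs for Zfp57, 17 for Trim28, 17 for Tet3 and 15 for Tet1, against a median of 6 over 32851 promoters. The other 2 windows of Zfp57 hold 3 and 7. For Dnmt1, a gene known to start at different sites in oocytes and in somatic cells, the windows hold 2, 7 and 26, and for Uhrf1 10 and 30. The letters GGGCGG, the GC box, stand on either strand in the Trim28, Tet3 and Tet1 windows and in 32.7% of all promoters, and in none of the 3 Zfp57 windows. TATAAA, the TATA box, is found in the Zfp57 window shown, on either strand, and in 12.4% of all promoters. These counts describe the letters and say nothing of which factors were bound.

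At the 2-cell stage, 4 of the 10 members had fallen in total reads relative to WT zygotes and 2 had risen. Zfp57, Uhrf1, Tet3 and Dnmt3a were lower, and Tet1 and Trim28 were higher. Over all 11262 genes tested, 17.9% were called lower and 18.5% higher in this comparison, so calls in both directions were common. With RLE factors, another scaling, 2559 genes were higher and 1641 lower, against 2088 and 2019 here. For the members the log2 ratios had a median of -0.71, beside 0.04 for all genes. The 6 oocyte and zygote markers that were lower move with the falling members, and their part in the result was not tested. Since values are shares of each column, less of a transcript per embryo and more of all others cannot be told apart.

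Among the genes that protect imprints, Zfp57 had 5902 reads (4465 RPM) in null zygotes, 3155 (814 RPM) in 2-cell embryos and 17628 (5892 RPM) in WT zygotes. The gene lies on chromosome 17 at 37001163 to 37010729, in GRCm38 (mm10) coordinates from RefSeq, which are used for all genes here. Its level in 2-cell embryos stood apart from both zygote columns, with a ratio to WT zygotes of 0.138 (95% interval 0.125 to 0.153). This ratio lies at percentile 5.37 of all genes tested. Trim28, the corepressor that ZFP57 recruits, lies on chromosome 7 at 13024152 to 13031032 and went the other way. It had 87 reads (65.8 RPM) in null zygotes, 282 (72.8 RPM) in 2-cell embryos and 96 (32.1 RPM) in WT zygotes. The 2-cell ratio was 2.23 (1.20 to 4.54). Dppa3, on chromosome 6 at 122626424 to 122630271, had 276 reads (209 RPM) in null zygotes, 1008 (260 RPM) in 2-cell embryos and 750 (251 RPM) in WT zygotes. The 2-cell ratio was 1.04 (0.802 to 1.35), with an interval on both sides of 1. A Dppa3 pseudogene is annotated, and how reads shared with it were counted is not given.

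In the maintenance pair, Uhrf1 fell and Dnmt1 was not called. Uhrf1, on chromosome 17 at 56303337 to 56323486, had 1230 reads (930 RPM) in null zygotes, 581 (149.9 RPM) in 2-cell embryos and 2305 (770 RPM) in WT zygotes. The ratio of 2-cell embryos to WT zygotes was 0.196 (0.151 to 0.248). Dnmt1, on chromosome 9 at 20907206 to 20959888, had few reads in every column, with 50 (37.8 RPM) in null zygotes, 58 (14.96 RPM) in 2-cell embryos and 95 (31.8 RPM) in WT zygotes. Its 2-cell ratio of 0.488 had an interval from 0.173 to 1.20, so the depth cannot tell a fall from no change.

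Of the genes for new methylation, Dnmt3a fell and the other two were not called. Dnmt3a, on chromosome 12 at 3801559 to 3914443, had 361 reads (273 RPM) in null zygotes, 575 (148 RPM) in 2-cell embryos and 922 (308 RPM) in WT zygotes. The 2-cell ratio was 0.483 (0.361 to 0.639), just past the 2-fold line. It lost the call with RLE factors (0.579) and when the reads of its 2 rows were summed (0.5004). The second Dnmt3a row had 28 reads in null zygotes, 67 in 2-cell embryos and 74 in WT zygotes, and its 2-cell ratio of 0.711 (0.260 to 1.85) was not called. Dnmt3l, on chromosome 10 at 78042287 to 78063622, had 105 reads (79.4 RPM) in null zygotes, 231 (59.6 RPM) in 2-cell embryos and 234 (78.2 RPM) in WT zygotes. Dnmt3b, on chromosome 2 at 153649411 to 153687730, had 20 reads (15.1 RPM) in null zygotes, 70 (18.1 RPM) in 2-cell embryos and 54 (18.05 RPM) in WT zygotes. Their 2-cell ratios were 0.765 (0.457 to 1.27) for Dnmt3l and 1.001 (0.352 to 2.96) for Dnmt3b, and the Dnmt3b interval is too wide to leave out a change of over 2-fold in either direction.

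Tet3 and Tet1 moved in opposite directions. Tet2, the remaining TET gene, is no member and had 5 reads in null zygotes, 27 in 2-cell embryos and 22 in WT zygotes, with an uncalled 2-cell ratio of 0.954 (0.159 to 6.26). Tet3, the dioxygenase gene known for 5-methylcytosine oxidation in the zygote, lies on chromosome 6 at 83362373 to 83457208. It had 5618 reads (4250 RPM) in null zygotes, 4314 (1113 RPM) in 2-cell embryos and 9740 (3255 RPM) in WT zygotes. Tet1, a relative known from embryonic stem cells and germ cells, lies on chromosome 10 at 62804570 to 62887469. It had 46 reads (34.8 RPM) in null zygotes, 241 (62.2 RPM) in 2-cell embryos and 68 (22.7 RPM) in WT zygotes. The 2-cell ratios were 0.342 (0.310 to 0.376) for Tet3 and 2.66 (1.31 to 6.28) for Tet1. Tet3 was lower in 2-cell embryos than in both zygote columns. For Tet1 the intervals of 2-cell embryos (43.2 to 86.7 RPM) and null zygotes (13.5 to 73.3 RPM) overlapped.

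**Figure D1:**
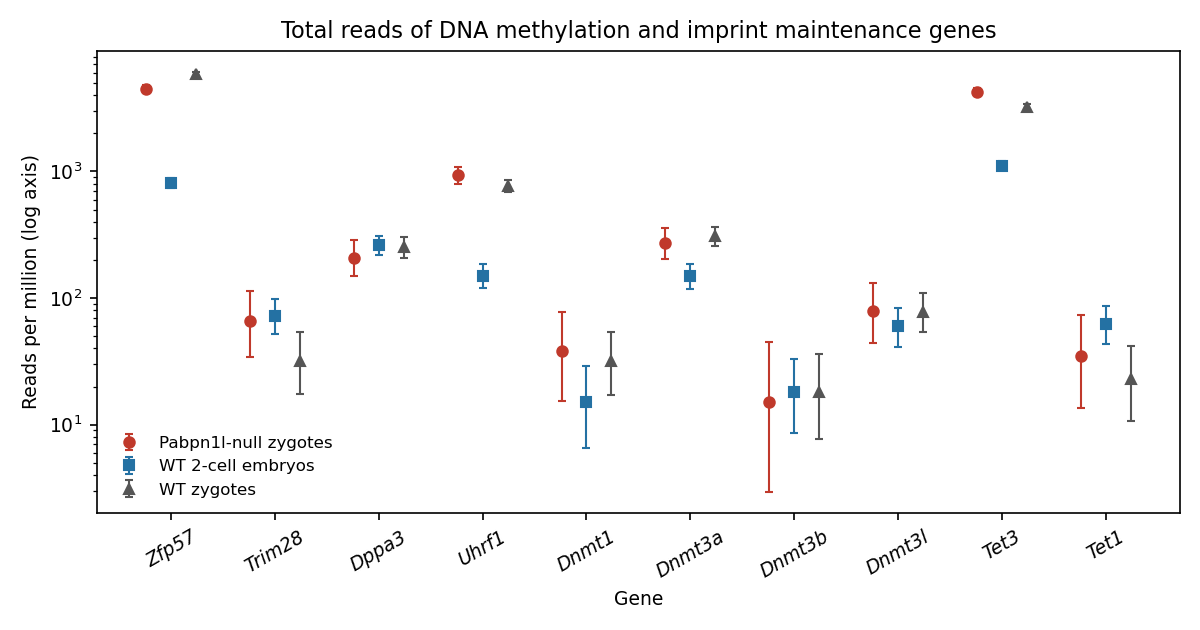
Total reads per 1000000 scaled reads (RPM, log axis) of the 10 members in Pabpn1l-null zygotes, WT 2-cell embryos and WT zygotes, 1 column of counts each, with 95% counting intervals at 7 reads per molecule. In 2-cell embryos Zfp57 stands at 814, Uhrf1 at 149.9 and Tet3 at 1113, below both zygote columns.

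**Figure D2:**
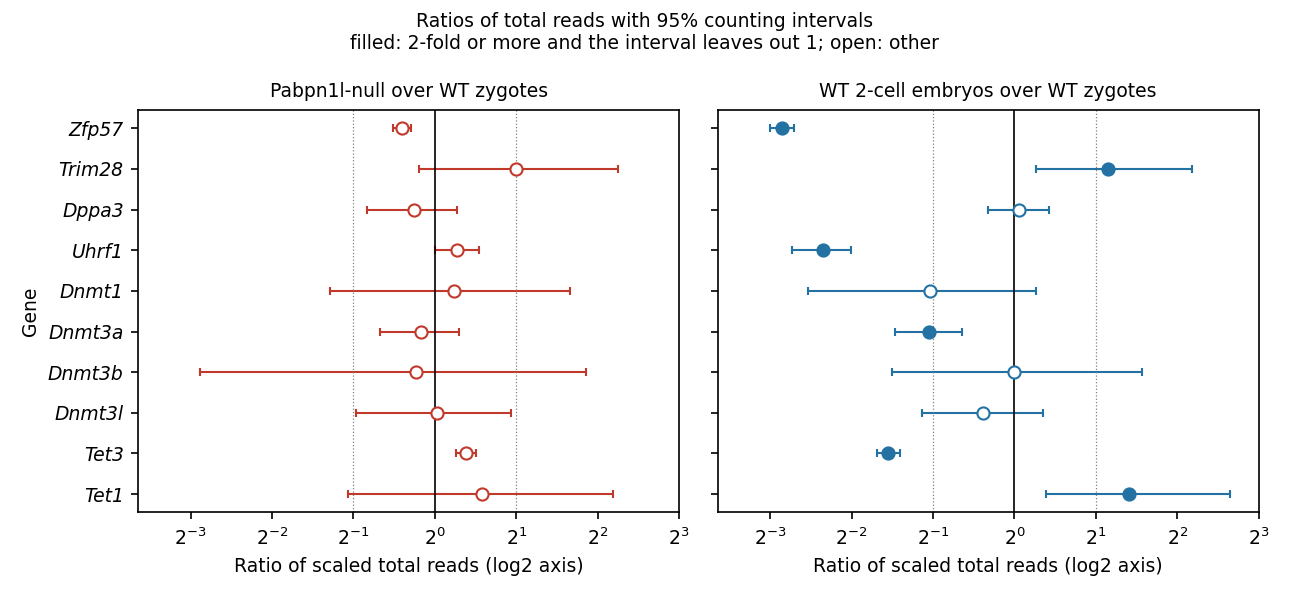
Ratios of scaled total reads (log2 axis) with 95% counting intervals, for Pabpn1l-null over WT zygotes (left) and 2-cell embryos over WT zygotes (right). Filled points are at least 2-fold with an interval that leaves out 1, which holds for 0 of 10 members on the left and 6 of 10 on the right.

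How many reads of the WT columns come from 1 molecule was not estimated, so both comparisons were also run with 7 reads per molecule in the null column and 1 in the WT columns. With clumps taken in the null column alone, 5 members were lower and 2 higher at the 2-cell stage, where 28.4% of all genes were lower and 30.8% higher. The member added was Dnmt1, with 0.474 (0.334 to 0.660).

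**Figure D3:**
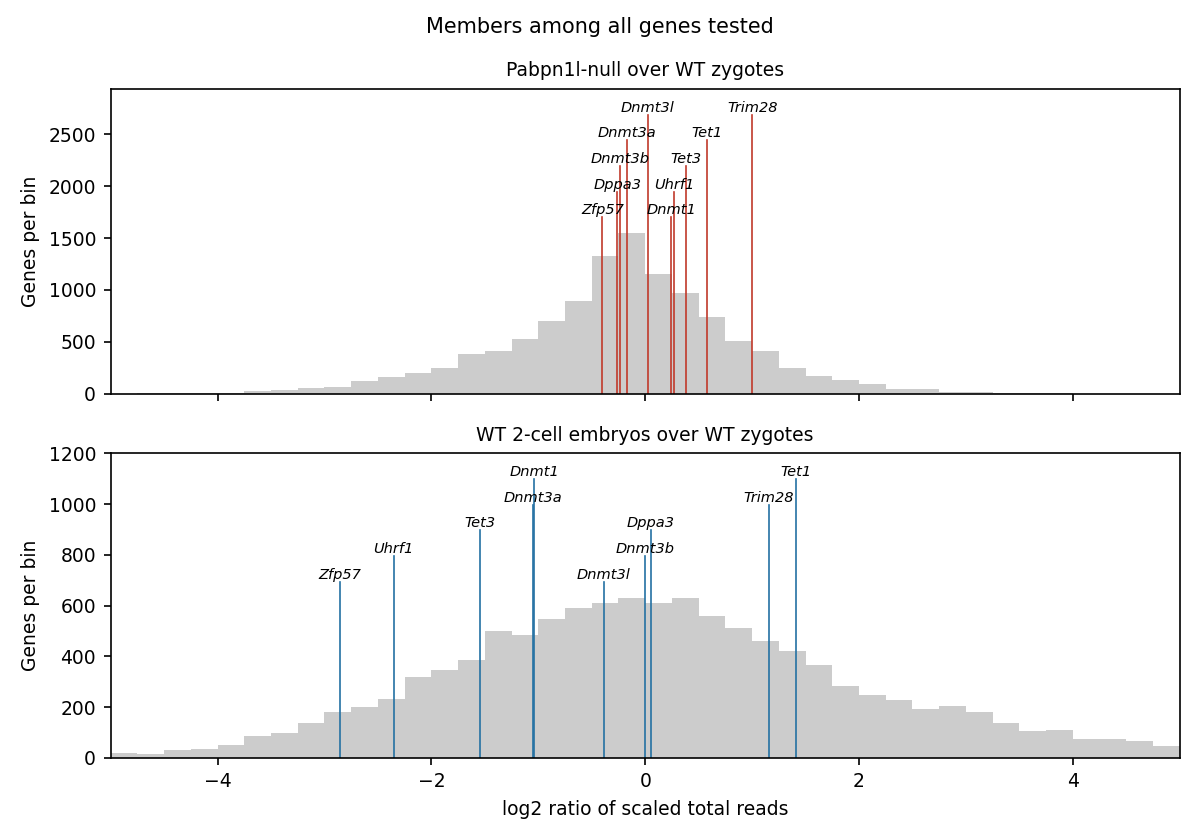
Log2 ratios of scaled total reads for all 11262 genes tested (grey bars, genes per bin) with the members marked, for Pabpn1l-null over WT zygotes (top) and 2-cell embryos over WT zygotes (bottom). In the lower panel the members run from -2.85 for Zfp57 to 1.41 for Tet1, and in the upper panel all lie between Zfp57 at -0.40 and Trim28 on the 2-fold line.

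T-to-C reads of the members came mostly from 3 genes. Zfp57, Tet3 and Uhrf1 held 428 of 459 such reads in null zygotes, 131 of 199 in 2-cell embryos and 670 of 722 in WT zygotes. All 3 were lower in 2-cell embryos. Zfp57 had 165 T-to-C reads in null zygotes, 37 in 2-cell embryos and 362 in WT zygotes, and the 2-cell ratio was 0.0866 (0.0255 to 0.192). For Tet3 the counts were 182 in null zygotes, 79 in 2-cell embryos and 219 in WT zygotes, with a 2-cell ratio of 0.288 (0.128 to 0.565). Uhrf1 had 81 in null zygotes, 15 in 2-cell embryos and 89 in WT zygotes, a 2-cell ratio of 0.159 (0.0157 to 0.557). The 15 reads in 2-cell embryos are under the 21 reads that a count of 0 allows, so the size of that fold is uncertain. Zfp57, Tet3 and Uhrf1 gave 3 calls among the 9 members with enough T-to-C reads, all lower. Of 4376 genes, 2.97% were called lower and 7.86% higher. These percentages are not matched for depth, and the 3 called genes had the most T-to-C reads of the members in both zygote columns. An excess among the members can therefore not be read from them. With clumps in the null column alone 4 members were lower, Dnmt1 added with 1 T-to-C read in 2-cell embryos and 7 in WT zygotes, where 21.1% of genes were lower and 32.1% higher. Dppa3 had 1 T-to-C read in null zygotes, 25 in 2-cell embryos and 12 in WT zygotes, and its 2-cell interval of 0.198 to 23.3 spanned 1. The other 6 members had at most 20 T-to-C reads in any column, under the 21 reads that a count of 0 allows, and no fold is given for them. Among these, Dnmt3a had 4 in null zygotes, 17 in 2-cell embryos and 20 in WT zygotes. Tet1 had 5, 10 and 5 in null zygotes, 2-cell embryos and WT zygotes, and Trim28 had 1, 9 and 2 in those columns. These 2 genes, which rose in total reads, also had few reads in all. As shares of their own reads in 2-cell embryos, the counts were 4.15% (0.270% to 17.0%) for Tet1 and 3.19% (0.163% to 14.2%) for Trim28. Such wide intervals cannot tell whether the 2 genes were labelled little or much.

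The fall in T-to-C reads did not exceed the fall in total reads by a called amount. T-to-C reads made up 2.80% of Zfp57 reads in null zygotes (1.79% to 4.15%), 1.17% in 2-cell embryos (0.397% to 2.66%) and 2.05% in WT zygotes (1.54% to 2.69%). Among genes with at least 500 reads in a column, the Zfp57 share lay at percentile 44 in null zygotes, 16 in 2-cell embryos and 45 in WT zygotes. The medians of such genes were 3.02% in null zygotes, 2.10% in 2-cell embryos and 2.18% in WT zygotes. Tet3 shares were 3.24% in null zygotes, 1.83% in 2-cell embryos and 2.25% in WT zygotes, at percentiles 55, 41 and 52 of those columns. Uhrf1 had the highest share of the 3 genes, with 6.59% (3.40% to 11.3%) in null zygotes, 2.58% (0.349% to 8.69%) in 2-cell embryos and 3.86% (2.05% to 6.55%) in WT zygotes, at percentiles 90, 62 and 87. The odds ratio of 2-cell embryos to WT zygotes was 0.613 (0.165 to 1.33) for Zfp57, 0.833 (0.359 to 1.64) for Tet3 and 0.779 (0.0646 to 2.74) for Uhrf1. With clumps in the null column alone the Zfp57 odds ratio was 0.573 (0.391 to 0.797), which leaves out 1 but is under 2-fold. None of the 10 members was called by share at the 2-cell stage, where 3.68% of 6909 genes were. The share also depends on how many T positions the counted part of a transcript has, which is not given.

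**Figure D4:**
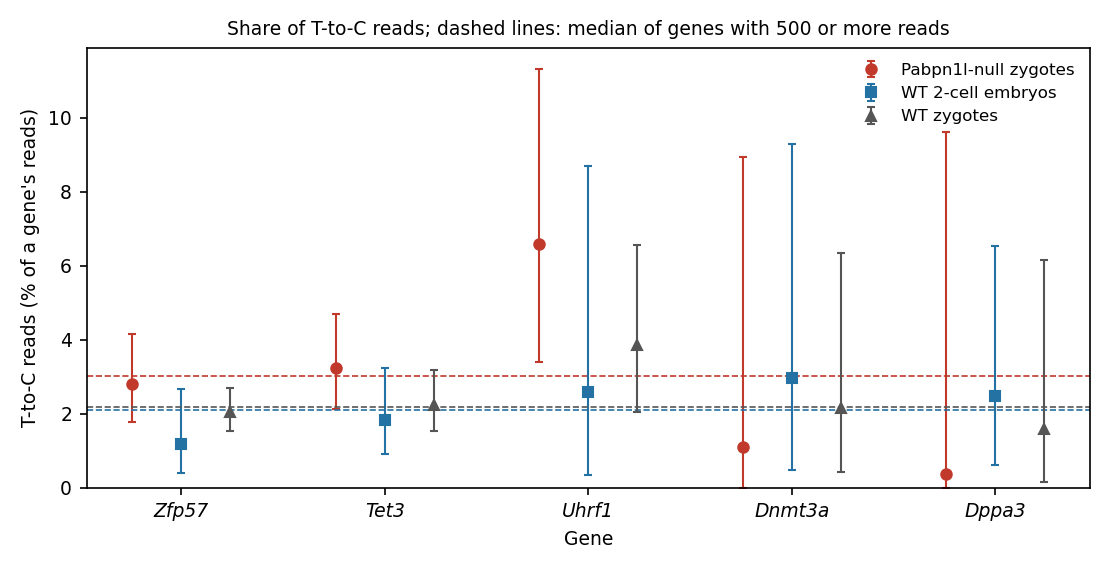
T-to-C reads as a percent of a gene's own reads for the 5 members with most reads. Values are for Pabpn1l-null zygotes, WT 2-cell embryos and WT zygotes, with 95% intervals at 7 reads per molecule. Dashed lines give the median of genes with at least 500 reads in each column, 3.02% in null zygotes, 2.10% in 2-cell embryos and 2.18% in WT zygotes. Uhrf1 in null zygotes is the point whose interval lies wholly above the line of its column.

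Between the Pabpn1l-null and WT zygote columns, no member was called in total reads. Of the 10 members 0 were higher and 0 lower in null against WT zygotes, where 4.45% of 11262 genes were called in either direction. The members with most reads were measured closely and differed by under 2-fold. Zfp57 had a null-to-WT ratio of 0.758 (0.700 to 0.820), and Tet3 one of 1.31 (1.20 to 1.42). Zfp57 was thus lower and Tet3 higher in null zygotes by more than counting error, while the spread between samples is unknown. On the log2 scale Zfp57 stood at -0.40, where the median over all genes tested was -0.15. For Uhrf1 the ratio was 1.21 (0.9999 to 1.45). The 5 oocyte and zygote markers called higher in null zygotes move the same way as Tet3 and the opposite way to Zfp57. Other markers of that list went the way of Zfp57 without a call. Bmp15, with the most reads of the list, stood at 0.831 (0.781 to 0.884), and Ooep at 0.750 (0.600 to 0.929). The part of the markers in these ratios was not tested. The ratios of the poorly covered genes had wide intervals, as for Trim28 with 2.00 (0.873 to 4.77), Tet1 with 1.496 (0.477 to 4.58), Dnmt1 with 1.18 (0.409 to 3.16) and Dnmt3b with 0.852 (0.135 to 3.61). With clumps taken in the null column alone Trim28 was called higher, at 2.04 (1.04 to 3.72), where 4.61% of all genes were. Ratios of Dnmt3a (0.887, 0.629 to 1.23), Dppa3 (0.834, 0.563 to 1.21) and Dnmt3l (1.02, 0.513 to 1.92) had intervals on both sides of 1.

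T-to-C reads of null zygotes gave the same count of 0 calls among the members, with 0.8% of 4376 genes called in either direction. In these reads the null-to-WT ratio was 1.86 (1.07 to 3.27) for Tet3, and for Uhrf1 2.01 (0.846 to 4.96) and for Zfp57 1.03 (0.606 to 1.71). The share of T-to-C reads in the whole null column was above that of WT zygotes, 3.86% against 3.03%. Scaled by the T-to-C total of each column, the ratios were 1.53 (0.881 to 2.68) for Tet3, 1.66 (0.694 to 4.07) for Uhrf1 and 0.848 (0.497 to 1.40) for Zfp57, all with intervals on both sides of 1. Odds ratios of the share were 1.46 (0.830 to 2.58) for Tet3, 1.76 (0.723 to 4.33) for Uhrf1 and 1.39 (0.814 to 2.31) for Zfp57, and 0 of 10 members were called, against 0.517% of 5999 genes. Dnmt3l had 12 T-to-C reads in null zygotes, 6 in 2-cell embryos and 2 in WT zygotes, all under the 21 reads that a count of 0 allows.

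For Zfp57, Uhrf1 and Tet3 the ratios to WT zygotes differed between the comparisons, which share their WT zygote column. Zfp57 stood at 0.758 in null zygotes and 0.138 in 2-cell embryos, Uhrf1 at 1.21 and 0.196, and Tet3 at 1.31 and 0.342. The 3 transcripts that were far lower at the 2-cell stage were within 1.5-fold of WT in null zygotes. No Pabpn1l-null 2-cell embryos are among the samples, so whether null embryos lose these transcripts by that stage cannot be told. Other members had closer ratios. Trim28, with 96 reads in the shared WT zygote column, stood at 2.00 (0.873 to 4.77) in null zygotes and 2.23 (1.20 to 4.54) in 2-cell embryos. Dppa3 stood at 0.834 and 1.04.

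Other genes of the pathway were read from lists put together with earlier results of these data known. Among 21 tested partners and readers of methylation, 0 were higher and 4 lower at the 2-cell stage. Over all genes tested, 18.5% were higher and 17.9% lower in that comparison. Among those lower were Zbtb33, also called Kaiso, with 305 reads in 2-cell embryos and 683 in WT zygotes (0.348, 0.235 to 0.498), the acetyltransferase gene Kat5 (0.389, 0.124 to 0.992) and the remodeller gene Hells (0.310, 0.0632 to 0.974). The list's median log2 ratio was 0.49. With RLE factors 5 were higher and 2 lower, at a median of 0.72, so no direction holds for the list as a whole. With clumps in the null column alone 7 were higher and 5 lower, where 30.8% of all genes were higher and 28.4% lower. Usp7, a deubiquitinase that binds DNMT1 and UHRF1, had a 2-cell ratio of 0.996 (0.805 to 1.23), and the H3K36 methyltransferase gene Nsd1, with the most reads of the list, one of 0.799 (0.729 to 0.876). In null zygotes 0 of the 21 were called, where 4.45% of all genes were called in either direction. Usp7 stood at 0.506 (0.339 to 0.731) there and Nsd1 at 0.633 (0.548 to 0.727). The list's median log2 ratio in null zygotes was -0.43, beside -0.15 for all genes tested. Genes with 0 reads in null zygotes, such as Hdac1 with 25 in WT zygotes, enter this median, and their part in it was not tested.

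The list of demethylation and base repair also holds the oocyte NLR gene Nlrp14. Of its 16 tested genes, 2 were higher and 5 lower at the 2-cell stage, against 18.5% higher and 17.9% lower over all genes. Lower were Nlrp14 (0.372, 0.273 to 0.497), an oocyte NLR gene, the uracil-DNA glycosylase genes Ung (0.461, 0.304 to 0.681) and Smug1 (0.0880, 0.0394 to 0.160), Elp3 (0.0607, 0.0209 to 0.124), the catalytic subunit gene of Elongator, and the DNA ligase gene Lig3 (0.200, 0.112 to 0.325). Higher were the stress-response genes Gadd45a, with 89 reads in 2-cell embryos and 5 in WT zygotes, and Gadd45b, with 125 and 7. Lig3, Apex1 and the Gadd45 genes were chosen after their values were seen. With RLE factors 3 were higher and 4 lower, and with clumps in the null column alone 6 and 5. Under that clump rule 30.8% of all genes were higher and 28.4% lower. In null zygotes 0 of 16 were called, against 4.45% of all genes. The median log2 ratio was -0.60, beside -0.15 for all genes tested. Genes with 0 reads in null zygotes, such as Alkbh1 with 23 in WT zygotes, enter this median, and their part in it was not tested. The intervals of Ung at 1.77 (1.23 to 2.57) and of the repair endonuclease gene Apex1 at 0.551 (0.279 to 0.997) left out 1, on opposite sides. In T-to-C reads 1 of the 7 tested was called, Nlrp14, with 28 in 2-cell embryos and 126 in WT zygotes (0.191, 0.0422 to 0.521). Over all genes 2.97% were called lower in these reads. With clumps in the null column alone 4 of the 7 were lower, against 21.1% of all genes.

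Among 29 genes of imprint protection and TRIM28-linked heterochromatin, 7 were higher and 4 lower at the 2-cell stage. The shares over all genes were 18.5% higher and 17.9% lower. Ctcf, the insulator protein gene, was higher with 1658 reads in 2-cell embryos and 528 in WT zygotes (2.42, 1.86 to 3.18). Lower were H3f3a, which encodes histone H3.3 (0.423, 0.340 to 0.522), Atrx, an H3.3 chaperone subunit (0.408, 0.302 to 0.542), and Nlrp5, of the subcortical maternal complex (0.199, 0.132 to 0.286). Setdb1, the H3K9 methyltransferase that TRIM28 recruits, was lower (0.191, 0.104 to 0.317). Suv39h1, also an H3K9 methyltransferase gene, had 734 reads in 2-cell embryos and 8 in WT zygotes, and the heterochromatin protein gene Cbx3 had 641 and 9. Zfp445, which encodes another KRAB zinc-finger protein that protects imprints, had 731 reads in 2-cell embryos and 591 in WT zygotes, a ratio of 0.955 (0.710 to 1.29). Setdb1, Suv39h1, Cbx3 and Zfp445 were chosen after their values were seen. In null zygotes 2 of the 29 were higher and 1 lower, where 4.45% of all genes were called in either direction. The higher ones were 2410004A20Rik, a RefSeq synonym of Khdc3, which belongs to the subcortical maternal complex (5.77, 3.93 to 8.93), and Nlrp2 (4.66, 1.67 to 18.9), and Atrx was lower (0.370, 0.224 to 0.574). Zfp445 stood at 0.536 (0.309 to 0.876) and was not called.

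Of 66 imprinted genes listed, 64 were in the table and 40 had at least 20 reads. At the 2-cell stage 9 of these were higher and 4 lower, and the median log2 ratio was 0.74. Of all genes tested 18.5% were higher and 17.9% lower. With clumps in the null column alone 17 were higher and 5 lower, where 30.8% of all genes were higher and 28.4% lower. Peg3, a paternally expressed zinc-finger gene, had 444 reads in 2-cell embryos and 164 in WT zygotes (2.07, 1.28 to 3.51), and the growth factor gene Igf2 had 219 and 12 (11.4, 3.29 to 157). The 12 Igf2 reads in WT zygotes are under the 21 reads that a count of 0 allows, so the size of that fold is uncertain. Blcap (0.192, 0.120 to 0.287) and H13 (0.169, 0.0897 to 0.282), each with an imprinted neighbour inside it, were lower. Mest had 528 reads in 2-cell embryos and 377 in WT zygotes, and its ratio of 1.08 (0.752 to 1.56) was not called. In null zygotes 0 of 40 were called, where 4.45% of all genes were, or 0 higher and 2 lower with clumps in that column alone. The median log2 ratio there was -0.16 beside -0.15 for all genes. In T-to-C reads 0 of the 7 imprinted genes tested were called in either comparison. At the 2-cell stage 1 was higher and 3 lower with clumps in the null column alone, where 32.1% of all genes were higher and 21.1% lower. Counts per gene do not separate the parental alleles, so these values give no measure of imprinting itself. Snrpn and Snurf have the same values in every column and count the same reads.

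**Figure D5:**
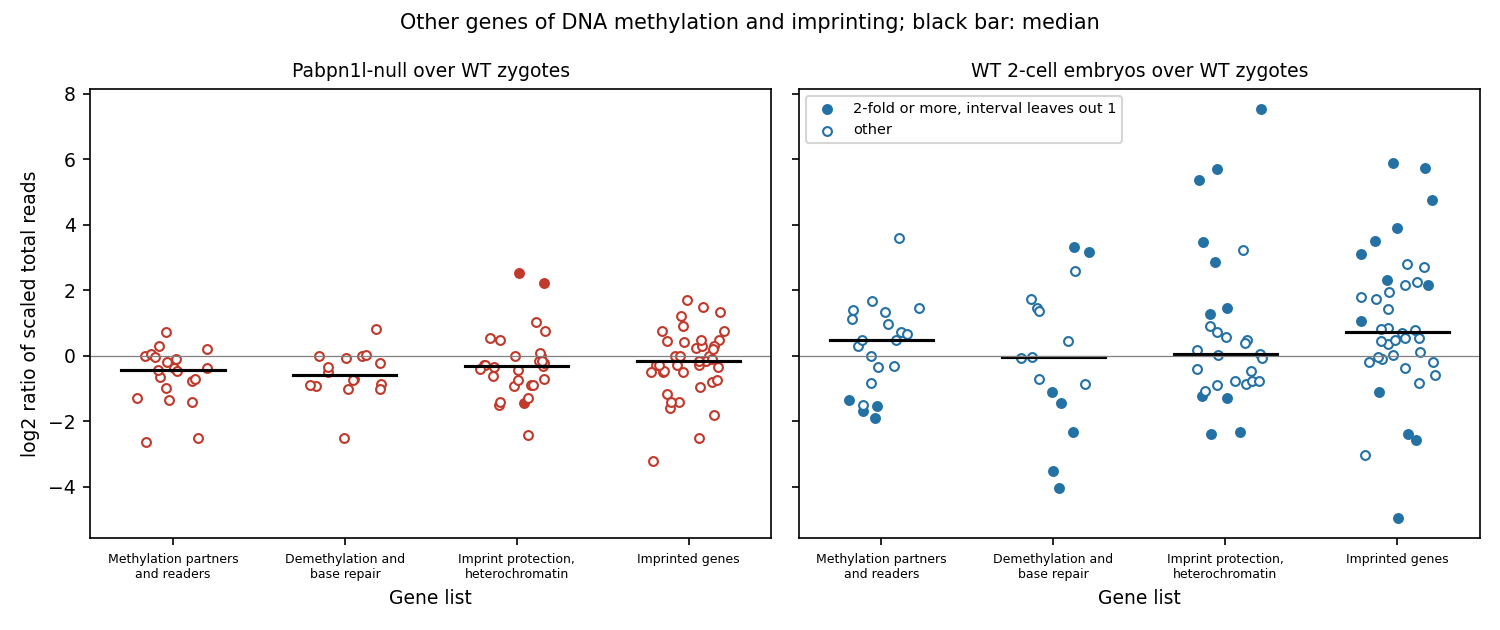
Log2 ratios of scaled total reads for the genes tested in the 4 lists, comparing Pabpn1l-null over WT zygotes (left) and 2-cell embryos over WT zygotes (right). Each point is a gene, filled where the ratio is at least 2-fold and its interval leaves out 1, and black bars are list medians. In null zygotes 3 points are filled, all in the list of imprint protection and heterochromatin.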

How the data were processed

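The authors deposited 1 table of raw counts, with a total count and a T-to-C count in each row for each of 3 groups. The submitters' processing notes name the build mm10. For the aligner, counter, annotation and any pooling of samples, nothing is stated in the labels or header. Rows named by a date or a number (49, at most 0.186% of reads) were left out, repeated rows were dropped, and of several rows with 1 name the one with most reads stayed, which kept at least 97.3% of the reads of distinct rows in each column. Columns were scaled with TMM factors (1.04 for null zygotes, 0.964 for 2-cell embryos, 0.997 for WT zygotes) from edgeR 4.0.16 on total reads. The same factors scaled the T-to-C counts. The planned fit over replicates could not be made on single columns.

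Ratios have 0.5 molecule, scaled to column size, added to each side, and conditional binomial intervals from scipy 1.17.1 on reads divided by 7. Shares of T-to-C reads have Clopper-Pearson intervals and conditional odds-ratio intervals. Molecule counts were left as fractions, or rounded for the odds-ratio intervals, so these formulas for exact intervals hold only approximately. Genes needed 20 total reads or 10 T-to-C reads over the columns, or 20 reads in both columns for the share. The code was tested on simulated data. The text names all members, up to 4 called genes per list, comparison and measure, and up to 3 others, in order of reads. For 1 called gene of the partner list the values are not reported here. Members and lists were chosen with earlier results of these data known. Alternatives were RLE factors, column totals, T-to-C totals, other clump rules, summed rows, no filter and a 1.5-fold line.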

Additional observations from a re-analysis of the deposited data

How the results depend on the processing

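No paired analysis was possible because each group has only 1 pair of count columns, and leaving out single samples was not run for the same reason. Counts of members called at the 2-cell stage stayed within 1.5 times of those reported, in total reads, T-to-C reads and the share, under each alternative tried. In null against WT zygotes all 3 counts of higher members were 0 and moved. With 1 read per molecule they were 1 in total reads, 2 in T-to-C reads and 1 in the share, where 10.7%, 18.8% and 14.6% of all genes tested were higher. With 7 reads per molecule in the null column alone each was 1, in total reads Trim28 (2.04) and in T-to-C reads Uhrf1 (2.05), and 4.61%, 3.75% and 1.97% of all genes were higher in total reads, T-to-C reads and the share. With a 1.5-fold line 1 member was called in T-to-C reads, which was Tet3, and 0.823% of all genes. Scaled by the T-to-C total, Tet3 stood at 1.53 with an interval that holds 1. Between 2-cell embryos and WT zygotes the median over all genes, on the log2 scale, was 0.28 with RLE factors and 0.04 with TMM factors. Dnmt3b, not called, stood at 0.969 with column totals. Zfp57 T-to-C reads in null over WT zygotes stood at 0.848 when scaled by their own total. The cause of these moves was not tested. Depth limits Dnmt1, Dnmt3b, Tet1 and Trim28, with at most 96 reads in either zygote column.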
